A study of Mus musculus with 14 samples.

Results

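The nuclear genes of oxidative phosphorylation (OXPHOS) were followed across RNA-seq libraries of mouse B cells. They were taken by name: every gene row starting with Nduf, Uqcr or Atp5, the cytochrome oxidase rows Cox4 to Cox8, and Sdha, Sdhb, Sdhc and Sdhd, without rows named as pseudogenes. This gave 92 of 41053 gene rows. By respiratory complex, 43 were placed with complex I, 4 with complex II, 8 with complex III, 20 with complex IV and 17 with complex V. The 43 of complex I are 7 core subunits, 29 supernumerary subunits and 7 assembly factors, and the 20 of complex IV are 11 subunits and 9 tissue-type isoforms or related genes. The 17 of complex V are 5 F1 subunits, 10 Fo or stalk subunits and 2 related genes. These 2, Atp5s and Atp5sl, are not subunits, are named Dmac2l and Dmac2 in RefSeq, and were placed with complex V by name only.

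All 14 libraries came from spleen cells of C57BL/6 mice and fall into 4 groups. The germinal center (GC) B cells, the dividing B cells in which antibody genes are mutated and selected, comprise 4 libraries labelled Tet2 knock-out (KO, replicates 2 to 5) and 3 wild-type (WT) libraries (replicates 1, 3 and 4). The lymphoma B cells comprise 2 libraries labelled as Tet2 knock-down and named shTet2 in the series, and 5 control libraries. The controls' genotype is labelled wild type. TET2 oxidises the methyl group of methylated cytosines in DNA. How the GC B cells were sorted, the ages of the mice, the part of Tet2 deleted, the driver of the deletion and the origin of the lymphoma were not given in the labels. Nothing in the labels says whether libraries of a group came from separate animals, so p-values speak only of the spread seen among these libraries, which may be technical.

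Complexes I to IV pass electrons from NADH and succinate to oxygen, all but complex II pump protons across the inner mitochondrial membrane, and complex V, the ATP synthase, uses the proton gradient to make ATP. Complex II is encoded only in the nucleus, while each of the others also holds subunits encoded in mitochondrial DNA, so their assembly draws on both genomes. Transcription factors known to act at promoters of nuclear OXPHOS genes are NRF1, the ETS-family factor GABPA and YY1.

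The depth differed between the kinds of cells. Total counts were 27191862 to 30434184 in the GC B cell libraries and 6691167 to 18598386 in the lymphoma libraries. Rows taken to hold ribosomal or other structural RNA made up 0.35% to 1.22% of counts in GC B cells and 42.6% to 74.2% in lymphoma cells, which left 2034270 to 7199577 counts outside them in lymphoma libraries. The OXPHOS genes took 1.24% to 1.48% of the counts outside those rows in GC B cells and 0.274% to 0.547% in lymphoma cells. Levels are given as CPM, counts relative to the library total in the usual CPM unit, scaled with TMM factors over all 14 libraries, and as RPKM, the same per kilobase of the gene model, where genes are set against each other. Tet2 itself was at 7.52 to 8.95 CPM in WT and 7.78 to 9.53 in KO-labelled libraries, and at 89.0 to 105 CPM in control and 79.3 and 86.0 in shTet2 lymphoma libraries. Neither difference passed the test (adjusted p = 0.909 and 0.295, edgeR), so whole-gene Tet2 counts do not check the KO and shTet2 labels, and the names below are the labels'. Summed B cell markers reached 5079 to 5497 CPM in GC and 3461 to 3893 CPM in lymphoma libraries. Summed GC markers reached 1421 to 1739 CPM in GC and 178 to 278 CPM in lymphoma libraries.

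Promoters of 76 members were matched in RefSeq (GRCm38.p6), as windows from 250 bases before to 50 bases after the start. The NRF1 motif CGCANGCG, searched on both strands, was in 27 of them (35.5%) and in 8.42% of all 27025 promoters of this length. The ETS motif CCGGAAG was in 16 (21.1%, against 9.12%) and the YY1 motif AAGATGGC in 10 (13.2%, against 2.88%). None of these letter strings contains another, and at least 1 of the 3 was in 45 member promoters (59.2%) and in 18.1% of all. The NRF1 motif was found in 13 of 38 promoters of complex I, 2 of 3 of complex II, 3 of 5 of complex III, 1 of 14 of complex IV and 8 of 16 of complex V. Member promoters had a median GC content of 57.8% against 52.7% over all promoters, and a match is a description, not a bound site. The stretches below are 120 bases upstream of the start, or upstream of the first exon of the count annotation where that lies further out. They show how the motif sits in 1 gene each of complexes I, IV and V and in both complex II genes that hold it in such a stretch. Capitals mark matches of the NRF1 motif on either strand, and in Sdhd also the ETS motif, which reads CTTCCGG on the strand shown.
Ndufa11, chr17:56717642-56717761, plus strand: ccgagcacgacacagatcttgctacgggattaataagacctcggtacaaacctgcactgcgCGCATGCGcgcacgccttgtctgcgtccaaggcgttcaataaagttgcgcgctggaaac
Sdha, chr13:74350281-74350400, minus strand: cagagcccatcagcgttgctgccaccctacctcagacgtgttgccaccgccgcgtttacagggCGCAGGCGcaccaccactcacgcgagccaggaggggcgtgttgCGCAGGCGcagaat
Sdhd, chr9:50603850-50603969, minus strand: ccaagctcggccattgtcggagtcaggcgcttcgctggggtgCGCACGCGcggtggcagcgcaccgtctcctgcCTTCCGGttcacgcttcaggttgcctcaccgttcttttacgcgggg
Cox6a1, chr5:115348982-115349101, minus strand: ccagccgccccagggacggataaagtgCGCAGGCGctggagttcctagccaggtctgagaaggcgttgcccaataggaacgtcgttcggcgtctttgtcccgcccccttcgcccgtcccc
Atp5h, chr11:115419963-115420082, minus strand: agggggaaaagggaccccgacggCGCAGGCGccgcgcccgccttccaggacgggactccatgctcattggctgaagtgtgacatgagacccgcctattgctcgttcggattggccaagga

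In WT GC B cells the catalytic F1 subunits of the ATP synthase and cytochrome oxidase subunits stood highest per kilobase, and 84 of the 92 genes averaged 1 CPM or more. The highest member was Cox6b1, a complex IV subunit facing the intermembrane space, at 405 RPKM. In complex I the highest were the supernumerary subunits Ndufa1 and Ndufa2 at 148 and 132 RPKM, and in complex III Uqcr10 and Uqcrh at 146 and 132 RPKM, with Uqcrb the lowest of complex III at 15.9 RPKM. Atp5a1 and Atp5b, the alpha and beta subunits that form the catalytic head of the ATP synthase, were at 341 and 253 RPKM, and Ndufa4, first placed in complex I and now counted to complex IV, at 220 RPKM. The median subunit was at 35.3 RPKM in complex I, 64.9 in complex II, 72.5 in complex III, 120 in complex IV and 56.9 in complex V. With assembly factors and the isoform or related genes left out, complex V gave 42.3% to 43.3% of the summed CPM of all subunits in WT libraries, complex I 25.1% to 26.1%, complex IV 14.2% to 14.8%, complex III 10.2% to 10.5% and complex II 6.56% to 6.94%. Within complex II, the 2 catalytic subunits Sdha (the flavoprotein) and Sdhb (the iron-sulfur protein) were at 57.6 ± 4.08 and 82.6 ± 6.53 RPKM (SD, n = 3), and the membrane anchors Sdhc and Sdhd at 15.8 ± 1.18 and 72.1 ± 5.64 RPKM.

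Subunits of a complex are needed together, yet their counts spanned from 1.78 to 148 RPKM in complex I, 6.18 to 405 in complex IV and 0.504 to 341 in complex V. Under 10 RPKM in WT GC B cells were 8 subunits: Ndufab1 (the acyl carrier protein), Ndufb2, Ndufb4, Ndufs5, Cox7c, Atp5g1, Atp5g2 and Atp5l. In 7 of these 8 at least 99% of the coding bases recur, at 98% identity or more over stretches of at least 50 bases, in another gene of the GENCODE vM21 transcripts. Over all members, 20 of the 21 copies are pseudogenes. For Atp5l, subunit g of the membrane part, all 312 coding bases recur in 3 other genes, for Cox7c all 192 in 2, and for Atp5g2 all 441 in 2. The exception, Ndufb2, has no such copy and a gene model of 5628 bases for 318 coding bases. Of the copied genes, Ndufab1 and Atp5g1 also have long gene models, of 6883 and 4912 bases for 471 and 411 coding bases. The part of copies and of model length in these levels was not tested. Over all members, 16 have a copied stretch, and their median level was 12 RPKM against 42.3 RPKM for the 76 without. Not every copied gene was low: Uqcr11, whose 171 coding bases are all copied in 1 other gene, was at 69.3 RPKM. The counting command in the file headers sets no option for reads with several alignments, which featureCounts leaves out by default, so the levels of these 16 genes are uncertain. Reads over several genes are left out by default too. Of the exon bases of Atp5o, Ndufb6, Cox5a and Ndufa13, 44.0%, 39.0%, 38.7% and 30.2% lie under other genes. Their levels are uncertain as well.

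**Figure D1:**
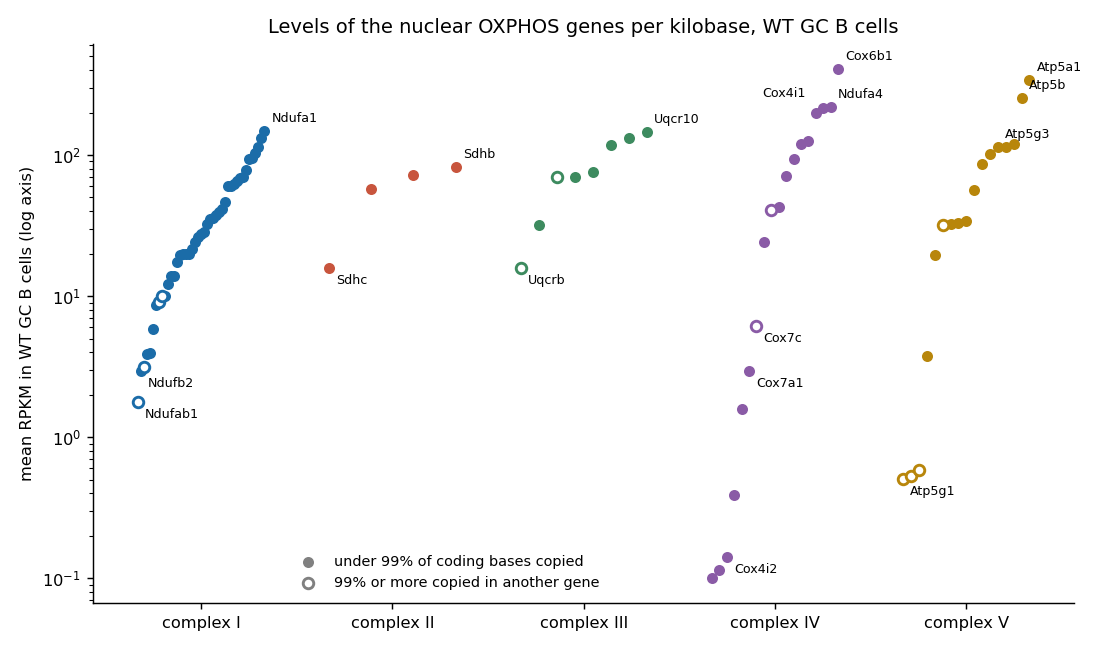
Mean RPKM in the 3 WT GC B cell libraries on a log axis, each point 1 member, sorted by level within its respiratory complex; open circles mark genes with 99% or more of their coding bases copied in another gene. Members with no counts in WT are not drawn, and 7 of the 8 subunits under 10 RPKM are open circles.

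Where a subunit has tissue-type isoforms, nearly all counted reads came from the widely expressed form. Cox4i1, the widely expressed form of complex IV subunit 4, averaged 215 RPKM in WT and 43.5 RPKM in control lymphoma libraries, while Cox4i2, the form known from lung and low oxygen, averaged 0.142 RPKM in WT and had 0 counts in the controls. Cox6a1 averaged 198 RPKM in WT and its heart and muscle counterpart Cox6a2 0.387 RPKM. Cox6b1 averaged 405 RPKM and the testis form Cox6b2 1.57 RPKM. Cox7a2 averaged 125 RPKM, the heart and muscle form Cox7a1 2.95 RPKM, and Cox7a2l, a related gene known for joining complexes III and IV into supercomplexes, 93.0 RPKM. Cox7b was at 71.2 RPKM, and Cox8a at 120 RPKM against 0.101 RPKM for the muscle form Cox8b, while Cox7b2 and Cox8c had 0 counts in all 14 libraries. Ndufa4 averaged 220 RPKM and Ndufa4l2, a low-oxygen counterpart, 0.114 RPKM. The 3 genes for subunit c, which forms the rotor ring of the ATP synthase, are known to encode the same mature protein, and Atp5g3 was at 114 RPKM against 0.504 for Atp5g1 and 0.588 for Atp5g2, both with fully copied coding parts. The muscle and brown fat markers, summed, were at 14.1 to 19.1 CPM in GC B cells and 2.35 to 4.54 CPM in lymphoma cells.

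KO-labelled against WT GC B cells asks whether the genes moved with loss of Tet2 in a normal B cell. No member of any complex passed the test, and the members' fitted changes centred on 0. The 5 members with the smallest p were Cox7a2l, Cox4i2, Cox8a, Ndufa1 and Cox5a, none past the threshold. Of 87 members tested, 0 were called higher and 0 lower at an adjusted p under 0.05 (edgeR), where 1.92% of 13600 genes were called higher and 4.57% lower. Cox7a2l and Cox4i2 were higher and Cox8a and Ndufa1 lower at an unadjusted p under 0.05, 2 members in each direction, against 8.42% and 11.4% of all genes. The KO-labelled libraries lay wholly above WT for 4 of the 87 members and wholly below for 0, against 11.9% and 8.3% of all genes. Among these were Cox4i2, Cox7a2l and Atp5l, named for not overlapping after their values were seen. The median log2 fold change was 0.02 over members and 0.01 over all genes tested. The quartiles were -0.04 and 0.09 over members and -0.15 and 0.15 over all genes.

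By complex, the median log2 fold change was 0.02 for complex I, -0.06 for complex II, 0.07 for complex III, 0.02 for complex IV and 0.03 for complex V. The 7 core subunits of complex I, which carry its redox centres, all had positive values, from 0.02 to 0.11, and all 4 Sdh genes negative ones, from -0.09 to -0.01. The 7 assembly factors Ndufaf1 to Ndufaf7, which build complex I but are not part of it, had a median of -0.11. Summed over all 92 genes, the level was 7570, 8526 and 9110 CPM in WT replicates 1, 3 and 4, and 9610, 8076, 9563 and 8394 CPM in KO-labelled replicates 2, 3, 4 and 5. The groups overlapped, and the spread within each group exceeded the difference of the means (8402 ± 777 CPM, SD, n = 3, against 8911 ± 791 CPM, SD, n = 4).

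The spread followed libraries rather than single genes. KO-labelled replicates 2 and 4 were the 2 highest of their group for 65 of the 87 members tested (74.7%, against 25.9% of all genes), and WT replicate 1 was the lowest of its group for 71 (81.6%, against 31.8%). The mitochondrially encoded genes, summed, were likewise lowest in WT replicate 1, at 9784 CPM, and at 14170 and 18544 CPM in WT replicates 3 and 4. In the KO-labelled libraries they were at 17490 and 18013 CPM in replicates 2 and 4 and at 15133 and 14967 CPM in replicates 3 and 5. What sets these libraries apart was not tested.

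Cox7a2l was at 96.9, 112 and 111 CPM in WT and at 150, 124, 148 and 121 CPM in KO-labelled libraries. All 4 KO-labelled values lay above all 3 WT values (log2 fold change 0.30, SE 0.10, adjusted p = 0.0849, edgeR), and 49.6% of its coding bases are copied in a pseudogene. Ndufa1, an X-linked complex I subunit (chromosome X, 37187588 to 37191163), was at 47.8, 63.2 and 75.1 CPM in WT and 58.2, 45.7, 53.4 and 50.5 CPM in KO-labelled libraries. These ranges overlapped, and the log2 fold change was -0.31 (SE 0.13, adjusted p = 0.215, edgeR). Cox8a was at 62.0, 69.6 and 64.3 CPM in WT and 57.9, 50.6, 62.6 and 60.5 CPM in KO-labelled libraries (log2 fold change -0.23, SE 0.09, adjusted p = 0.165, edgeR), and Cox5a had a log2 fold change of -0.18 (adjusted p = 0.327). Cox4i2, at 0.24, 0.386, 0.319 and 0.305 CPM in KO-labelled libraries, rested on very few reads (log2 fold change 1.39, SE 0.51, adjusted p = 0.125, edgeR). For the Sdh genes, Sdha, Sdhb, Sdhc and Sdhd had log2 fold changes of -0.05, -0.08, -0.09 and -0.01, each within 1 SE of 0 (SE 0.09, 0.09, 0.09 and 0.11).

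The 2 genes nearest the threshold depend on the setting. DESeq2 called Cox7a2l (adjusted p = 0.0444) and limma-voom called 0 members, and without WT replicate 1 Ndufa1 was called lower (log2 fold change -0.46, adjusted p = 0.0286, edgeR). Of the lists of related genes, 0 of 44 other OXPHOS genes tested (cytochrome c, Cyc1, assembly factors), 0 of 16 regulators of mitochondrial biogenesis and 0 of 10 mitochondrially encoded genes were called. Beside this, all 7 myeloid markers tested were called lower in KO-labelled libraries, their sum being 24.3 to 35.6 CPM in WT and 11.2 to 13.8 CPM in KO-labelled libraries. Their part in the members' values was not tested.

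The shTet2 against control lymphoma comparison asks the same of lymphoma cells. Most OXPHOS genes had a higher value in the shTet2 group, in every complex, but none passed the test, and the shift came largely from 1 of the 2 shTet2 libraries. Of 83 members tested, 0 were called higher and 0 lower at an adjusted p under 0.05 (edgeR), where 1.84% of 12797 genes were called higher and 0.742% lower. Values above 0 were seen for 76 of the 83 (91.6%), against 49.4% of all genes, and the median log2 fold change was 0.35 against -0.004 for all genes. At an unadjusted p under 0.05, 34 members were higher and 0 lower, against 10.6% and 8.53% of all genes. Both shTet2 libraries lay above all 5 controls for 23 members and below them for 0, against 12.5% and 8.54% of all genes.

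Medians by complex were 0.32 for complex I, 0.42 for complex II, 0.33 for complex III, 0.34 for complex IV and 0.38 for complex V. Unadjusted p under 0.05 was reached by 13 of 42 genes of complex I, 3 of 4 of complex II, 3 of 8 of complex III, 5 of 13 of complex IV and 10 of 16 of complex V, all higher. The assembly factors had a median of 0.30. Values below 0 included Cox7c at -0.47, with a fully copied coding part, Ndufaf5 at -0.21 and Atp5d, the delta subunit of the F1 part, at -0.14, none of them past the threshold (adjusted p = 0.336, 0.638 and 0.618, edgeR).

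The sum over all 92 genes was 2102, 2033, 2014, 2347 and 2134 CPM in control replicates 1 to 5, and 2322 and 3090 CPM in shTet2 replicates 1 and 2. The first shTet2 library thus lay below the highest control and the second above all controls. Replicate 2 exceeded replicate 1 for 76 of the 83 members (91.6%, against 50.8% of all genes). Replicate 2 lay above every control for 65 members (78.3%, against 32.4% of all genes) and replicate 1 for 25 (30.1%, against 20.4%). Relative to the control mean, the summed level was 1.06-fold in replicate 1 and 1.4-fold in replicate 2 for complex I, and 1.14-fold and 1.5-fold for complex V. With replicate 1 left out the median log2 fold change was 0.55, and with replicate 2 left out it was 0.07. In these 2 fits 1 shTet2 library stands alone, so only the medians are given.

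**Figure D2:**
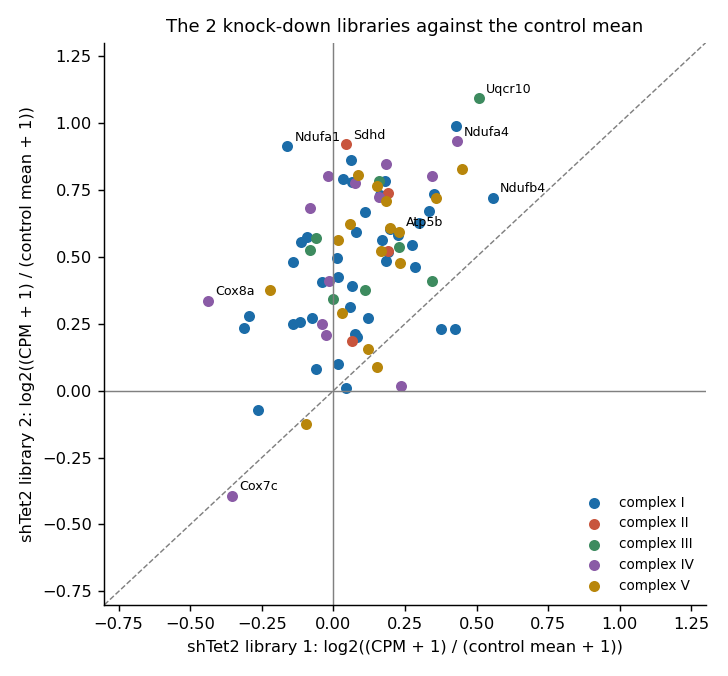
Each point is 1 of the 83 members tested, with shTet2 library 1 on the x axis and shTet2 library 2 on the y axis, both as the log2 ratio of CPM + 1 to the mean of the 5 controls + 1. Points lie above the dashed line of equality for most genes, since library 2 exceeded library 1 for 76 of 83.

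The 5 members with the smallest p were Ndufa4, Uqcr10, Ndufb5, Atp5a1 and Atp5b. Ndufa4 was at 22.4, 16.8, 16, 22 and 22.6 CPM in controls 1 to 5 and at 27.3 and 39.0 CPM in shTet2 libraries 1 and 2. Both shTet2 values were above all controls (log2 fold change 0.70, SE 0.17, adjusted p = 0.0560, edgeR). Uqcr10, a small subunit of complex III, was at 8.78, 6.57, 8.73, 11.6 and 9.61 CPM in controls and at 13.3 and 20.5 CPM in shTet2 libraries. The groups did not overlap here either (log2 fold change 0.85, SE 0.21, adjusted p = 0.0568, edgeR). Ndufb5, a complex I subunit of the membrane arm, was at 17.6, 20.1, 15.8, 17.1 and 18.6 CPM in controls and at 23.0 and 30.3 CPM in shTet2 libraries (log2 fold change 0.57, SE 0.15, adjusted p = 0.0642, edgeR). The catalytic ATP synthase subunits Atp5a1 and Atp5b had log2 fold changes of 0.40 each (SE 0.11 each, adjusted p = 0.0804 and 0.0851, edgeR). Atp5b was at 272, 249, 230, 281 and 272 CPM in controls and at 306 and 395 CPM in shTet2 libraries, without overlap.

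In complex II, Sdhb was at 27.5, 31.0, 27.6, 28.0 and 23.2 CPM in controls and at 31.5 and 46.6 CPM in shTet2 libraries. Both lay above the controls, the first by under 1 CPM (log2 fold change 0.49, SE 0.16, adjusted p = 0.114, edgeR). Sdhd, the small membrane anchor, was at 20.7 and 38.8 CPM in shTet2 libraries and at 15.3 to 24.9 CPM in controls, so that only the second shTet2 library stood above them (0.53, SE 0.23, adjusted p = 0.255). Sdhc and Sdha had log2 fold changes of 0.35 (SE 0.14, adjusted p = 0.209) and 0.11 (SE 0.10, adjusted p = 0.615).

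DESeq2 called 4 members higher (Ndufa4, Uqcr10, Atp5a1 and Atp5b) and limma-voom 0. Over all genes DESeq2 also called more than edgeR, as given at the end. The mitochondrially encoded genes went the other way: 5 of 7 tested (mt-Nd1, mt-Nd2, mt-Nd4, mt-Nd5 and mt-Nd6) were called lower in shTet2 libraries, with log2 fold changes of -1.0 to -0.55, and their sum was 10507 and 10059 CPM against 11911 to 15085 CPM in controls. They encode complex I subunits, whose nuclear partners had a median of 0.32. Of the other OXPHOS genes 0 of 43, and of the regulators 0 of 16, were called, with medians of 0.08 and -0.07. The structural RNA share was 51.2% and 42.6% in the 2 shTet2 libraries and 54.0% to 74.2% in controls. Called higher were also 2 of 7 GC markers and 2 of 5 plasma cell markers tested, the GC sum being 246 and 278 CPM in shTet2 and 178 to 222 CPM in control libraries. The summed myeloid markers were at 50.6 CPM in shTet2 library 1 and 178 CPM in library 2, the library with the higher OXPHOS levels, against 49.5 to 80.8 CPM in controls. Of the 9 tested 0 were called, and 4 had a log2 fold change above 0. In library 2 Itgam was at 83.9 CPM and Emr1 at 34.5 CPM, while Lyz2, at 14.4 CPM, lay within the controls (11.5 to 17.6 CPM). The summed T cell markers were at 37.4 and 68.2 CPM in the 2 shTet2 libraries against 24.4 to 52.8 CPM in controls. Of these sums Lck alone was at 25.2 and 48.2 CPM, against 17.0 to 24.8 CPM, and 0 of 7 T cell markers tested were called. The part of the structural RNA share and of all these markers in the members' values was not tested.

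The difference between the 2 effects, shTet2 minus control less KO minus WT, was tested in 1 model of all libraries. No member was called: of 87 tested 0 were higher and 0 lower (edgeR), where 3.39% and 1.61% of 15441 genes were. At an unadjusted p under 0.05, 14 members were higher and 1 lower, against 10.7% and 8.94% of all genes, and DESeq2 and limma-voom called 0. The median difference was 0.27, against -0.01 for all genes. The smallest p values belonged to Sdhb (difference 0.54, SE 0.18, adjusted p = 0.0857), Ndufb5 (0.49, adjusted p = 0.114), Ndufa2 (0.50, adjusted p = 0.114), Ndufa4 (0.61, adjusted p = 0.119) and Cox5b (0.72, adjusted p = 0.123). Without shTet2 replicate 1 the difference for Sdhb was 0.80, and without shTet2 replicate 2 the median over members was -0.00024. Each of these fits holds 1 shTet2 library. Without WT replicate 1 Uqcr10 was called higher (adjusted p = 0.0480), and without control replicate 4 Cox5b was (adjusted p = 0.0346).

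Control lymphoma against WT GC B cells sets the 2 groups without loss of Tet2 side by side. Nearly all OXPHOS genes were lower in the lymphoma libraries, in every complex, to 25.3% of the GC B cell level in sum. Of 85 members tested, 81 were called lower and 0 higher (edgeR), where 42.8% of 13347 genes were called lower and 40.6% higher. The median log2 fold change was -1.89, against -0.07 for all genes. Control lymphoma libraries lay wholly below WT for 80 members and wholly above for 0, against 42.7% and 36.4% of all genes. The sum over all 92 genes was 2126 ± 133 CPM (SD, n = 5) against 8402 ± 777 CPM (SD, n = 3), a 3.95-fold difference.

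Summed over its 11 subunits, complex IV was 4.62-fold lower, and in the same way complex V, the ATP synthase, 4.43-fold, complex III 3.97-fold, complex I 3.66-fold and complex II 2.84-fold. These sums weigh the most abundant genes most and hold subunits only. The medians are over all tested members, with assembly factors and isoform or related genes, and gave another order. Both weight and gene set thus differ between sums and medians. The median log2 fold change was -2.23 for complex IV, -1.90 for complex III, -1.89 for complexes I and II and -1.80 for complex V. Called lower were 42 of 43 genes of complex I, 4 of 4 of complex II, 8 of 8 of complex III, 12 of 14 of complex IV and 15 of 16 of complex V. The share of complex V in the summed subunit level was 38.3% to 39.7% in control lymphoma libraries and 42.3% to 43.3% in WT, and that of complex IV 11.8% to 13.4% against 14.2% to 14.8%. The share of complex I was higher, 27.5% to 29.1% against 25.1% to 26.1%, as was that of complex II, 9.0% to 10.2% against 6.56% to 6.94%. None of these shares overlapped between the groups, while that of complex III did (10.2% to 10.8% against 10.2% to 10.5%). All 7 assembly factors were called lower, with a median of -1.24, against -1.96 for both the 7 core and the 29 supernumerary subunits of complex I.

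**Figure D3:**
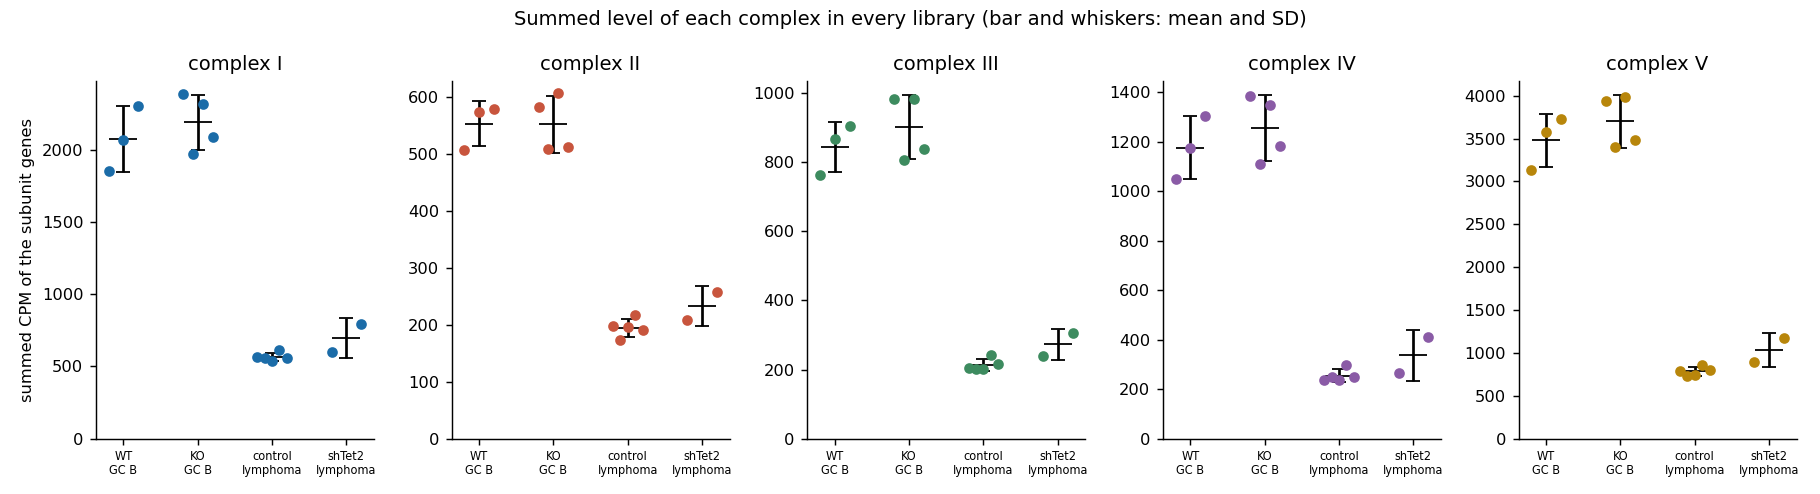
Summed CPM of the subunit genes of each complex, without assembly factors and isoform or related genes (y axes from 0), in every library of the 4 groups; each point is 1 library, the bar and whiskers are the mean and SD. The lymphoma libraries lie below all GC B cell libraries in each complex, and the second shTet2 library lies above the controls.

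Within complex II the 4 genes fell by different amounts. Sdhb was at 168, 190 and 197 CPM in WT and 27.5, 31.0, 27.6, 28.0 and 23.2 CPM in control lymphoma libraries (log2 fold change -2.69, SE 0.09, adjusted p = 4.15e-14, edgeR). Sdha was at 206, 237 and 228 CPM in WT and 132, 113, 133, 148 and 132 CPM in control lymphoma libraries. Its log2 fold change of -0.68 (SE 0.08, adjusted p = 5.79e-07, edgeR) was the smallest fall of the 4, and the groups still did not overlap. Sdhc and Sdhd had log2 fold changes of -1.66 and -2.12 (SE 0.09 and 0.11). Per kilobase, Sdha was below Sdhb in WT (57.6 and 82.6 RPKM) and above it in control lymphoma cells (33.9 ± 3.25 and 12.3 ± 1.25 RPKM, SD, n = 5).

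The 10 largest falls among called members were those of Ndufs5, Uqcr10, Cox5a, Atp5g3, Ndufa1, Ndufa2, Atp5e, Atp5k, Cox6b2 and Atp5j, from -3.21 to -2.70 on the log2 scale. Atp5g3, the subunit c gene with the most counted reads, was at 228, 240 and 275 CPM in WT and 31.0, 28.1, 32.3, 31.8 and 27.9 CPM in control lymphoma libraries. The lowest WT library was thus far above the highest lymphoma library (log2 fold change -2.95, SE 0.09, adjusted p = 9.52e-15, edgeR). Uqcr10 was at 66.4, 86.3 and 102 CPM in WT and 6.57 to 11.6 CPM in controls (-3.11, SE 0.15, adjusted p = 1.53e-10). Ndufa1 was at 7.21 to 9.39 CPM in controls (-2.90, SE 0.14, adjusted p = 1.99e-11), and Ndufs5, whose coding part is copied elsewhere, at 0.365 to 1.17 CPM against 6.49 to 8.58 CPM (-3.21, SE 0.26, adjusted p = 2.78e-09). Cox5a, a complex IV subunit with 38.7% of its exon bases under a gene on the other strand, fell by 2.96 (SE 0.18, adjusted p = 9.92e-11). Ndufa2 (-2.85), Atp5e (-2.85), the epsilon subunit of the F1 part, and the membrane-part subunits Atp5k (-2.81) and Atp5j (-2.70) followed, and Cox6b2 (-2.80) was at 1.74 CPM or less in both groups on average.

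The 4 members tested and not called were Ndufb4, Cox7a1, Cox7c and Atp5g2. Of these, 3 have fully copied coding parts: Cox7c was at 7.63, 5.29 and 8.04 CPM in WT and 7.41, 5.84, 8.27, 7.04 and 4.67 CPM in control lymphoma libraries (log2 fold change 0.02, SE 0.20, adjusted p = 0.913, edgeR). The WT range lay within that of the controls. Ndufb4 had -0.42 (SE 0.30, adjusted p = 0.194) and Atp5g2 -0.11 (SE 0.42, adjusted p = 0.806), the latter on 0.195 to 1.45 CPM in control lymphoma libraries. The muscle form Cox7a1 had -0.12 (SE 0.41, adjusted p = 0.786). Of the 15 tested members with a copied stretch 12 were called lower, with a median of -1.33, and of the 70 without 69 were, with a median of -1.97.

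**Figure D4:**
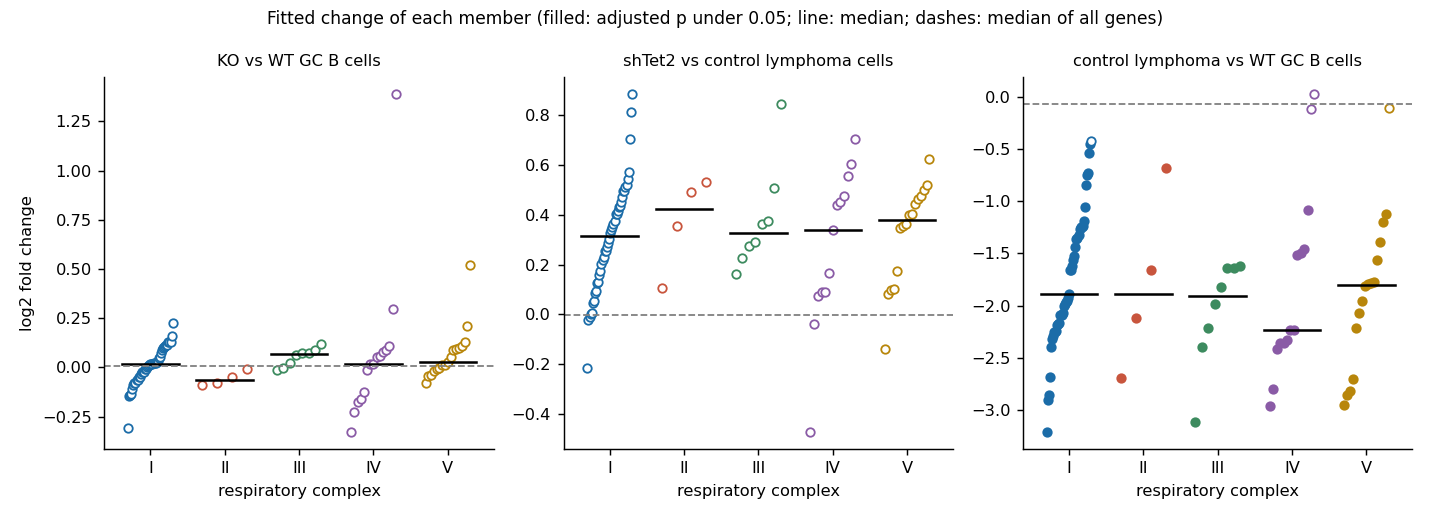
Log2 fold change of every member tested (points, sorted within each complex) in the 3 comparisons between groups, with filled points at an adjusted p under 0.05, a line at each complex's median and a dashed line at the median of all genes tested. The y axes differ: the medians of all members are 0.02 in the KO against WT panel, 0.35 in the shTet2 panel and -1.89 in the lymphoma against GC panel, where 81 of 85 points are filled.

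The other OXPHOS genes shared the direction less uniformly: 29 of 44 tested were called lower and 5 higher, with a median of -0.82. Cyc1, the cytochrome c1 subunit of complex III, fell by 2.32 (SE 0.09) and Cmc2, a complex IV assembly factor, by 3.26 (SE 0.16). Cycs, somatic cytochrome c, rose by 2.78 (SE 0.26), from 1.21 ± 0.41 CPM (SD, n = 3) to 8.08 ± 1.47 CPM (SD, n = 5), and Ttc19, which acts in complex III assembly, rose by 1.11 (SE 0.11). Copied stretches were searched for the members only, so whether reads of Cycs were left out as having several alignments was not checked. Its low level is uncertain. Among 16 regulators 7 were called higher and 5 lower: Ppargc1a, a coactivator of mitochondrial genes, rose by 4.90 (SE 0.37), from 0.168 to 4.87 CPM on average, and Ppargc1b by 1.90 (SE 0.16). Nrf1 rose by 0.28 (SE 0.08), and Tfam, which packages mitochondrial DNA, fell by 0.69 (SE 0.07). Mitochondrially encoded genes did not share the fall of their nuclear partners as a group: 1 of 9 tested was called higher and 3 lower, with a median of 0.08, and their sum was 13800 ± 1323 CPM (SD, n = 5) against 14166 ± 4380 CPM (SD, n = 3). However, mt-Nd3, mt-Nd4l, mt-Co2, mt-Co3, mt-Atp6 and mt-Atp8 averaged 0.78 CPM or less in WT and 0.30 CPM or less in controls. Some of these near-empty rows are among those tested. The sum rests on the other rows, none of them an mt-Atp gene.

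Cell kind, count table and structural RNA share change together between these groups and cannot be told apart, and fewer cells of a type cannot be told apart from less RNA per cell in bulk libraries. With the structural and mitochondrially encoded rows taken out before scaling, 81 members were again called lower, with a median of -1.90. The members' gene models had a median length of 1465 bases against 3423 for all genes tested, and the Spearman correlation of length with the log2 fold change was 0.174 across 13347 genes and 0.343 across the 85 members, as a description over genes that share libraries. All 7 GC markers tested were called lower in control lymphoma libraries, as were 4 of 6 B cell markers. Called higher was 1 B cell marker, Pax5, which averaged 190 CPM in WT and 270 CPM in controls. Of 9 myeloid markers tested 4 were called higher and 0 lower, with sums of 49.5 to 80.8 CPM against 24.3 to 35.6 CPM in WT. Of 6 T cell markers 5 were called higher and 1, Lck, lower; Lck averaged 122 CPM in WT and 20.8 CPM in controls, within T cell sums of 106 to 134 CPM and 24.4 to 52.8 CPM. The part of length and of other cells in the fall was not tested.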

How the data were processed

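RNA had been taken up with Trizol and a column kit and made into stranded mRNA libraries, per the labels. The submitters' processing notes name STAR 2.3.0e and the build GRCm38.p3. The 2 deposited tables hold raw counts of reads per gene name over GENCODE vM3 exons from featureCounts 1.5.1, per the file headers. Their command sets no option for strand, for reads with several alignments or for reads over several genes, and the tool by default ignores strand and leaves out both kinds of reads. The tables were joined by gene name.

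Comparisons used edgeR 4.0.16 in R 4.3.3 over all gene rows, with TMM scaling, filterByExpr, a robust quasi-likelihood fit and p-values adjusted by Benjamini-Hochberg over all genes tested, called at 0.05. DESeq2 1.42.0 and limma 3.58.1 (voom) were alternatives, and the fits were tested on simulated data. No library was a copy of another. The members and lists were chosen with earlier results of these data known. The genes named are the Sdh genes, the highest and lowest by complex, isoform groups, and in each comparison up to 10 called members per direction or, with under 3 called, the 5 of smallest p. Copied stretches came from GENCODE vM21 transcripts and promoters from RefSeq, GRCm38.p6. Some items withheld for evaluation are not reported here.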

Additional observations from a re-analysis of the deposited data

Results flagged for a closer look

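Of 86 sets of 4 KO-labelled or 5 control lymphoma libraries checked for a library far from the others, 4 had one, and chance alone gives about 1 in 20. Cox4i1 was at 80.9 CPM in control lymphoma replicate 4, above the other controls at 60.9 to 66.6 CPM. Atp5e was at 13.5 CPM in control lymphoma replicate 2, below the others at 22.8 to 26.3 CPM. Cox6b2 was at 1.79 CPM in KO-labelled replicate 2, above the others at 1.29 to 1.35 CPM. Cox8b was at 0.0228 CPM, from a single read, in KO-labelled replicate 4 and at 0 in the other KO-labelled libraries.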

How the results depend on the processing

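Of the members in KO-labelled against WT GC B cells, 1 was called higher with DESeq2 and 1 without the filter on low counts (Cox7a2l in both), and 1 was called lower without the filter and 1 with the replicate block (Ndufa1 in both), where the main analysis called 0. Leaving out single libraries gave 0 to 1 called lower, the 1 being Ndufa1 without WT replicate 1. Sdhd turned positive without the filter (0.00080) and in 1 model of all 14 libraries (0.04426), as did Sdha in that model (0.002769), and Sdhd ran from -0.07785 to 0.04667 as single libraries were left out, none called. In shTet2 against control lymphoma cells, 4 members were called higher with DESeq2, 15 without the filter and 13 in 1 model of all libraries, and 0 to 35 as single libraries were left out. In control lymphoma against WT, upper-quartile scaling gave a median of -1.605 with all genes at a median of 0.22, and 1 member was called higher without the filter. For the difference of the effects, leaving out single libraries gave 0 to 25 members called higher, 0 to 1 lower and a median of -0.0002388 to 0.4893. The causes were not tested.

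Over all genes, the shTet2 comparison called 330 genes, 593 with DESeq2, 782 without the filter, 840 in 1 model of all libraries and 100 to 2481 with single libraries left out. KO against WT called 883 and 1365 without the filter. The difference called 771, 1198 with DESeq2 and 283 to 2001 with single libraries left out. Same-numbered libraries gave correlations of deviations of 0.0257 and -0.0673 in GC B cells and -0.121 and -0.0347 in lymphoma cells. The deviations of the 2 shTet2 libraries mirror each other by construction, and few same-numbered pairs exist. These values thus cannot settle whether the numbers pair libraries. With the replicate block the median was -0.10 for KO against WT with 570 genes called, 0.37 for shTet2 against control with 0 members and 4 genes called, and 0.42 for the difference with 256 genes called. Only replicates 3 and 4 of the GC B cells and replicates 1 and 2 of the lymphoma cells occur in both groups compared. The blocked effects, with the Ndufa1 call, thus rest on these libraries alone. Leaving out members with a copied stretch, chosen after seeing the data, gave 69 of 70 lower in lymphoma against WT cells. Lymphoma libraries held the fewest counts outside structural RNA, which limits the members with low counts there.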
